A study of Mus musculus with 34 samples.

Results

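Upstream open reading frames (ORFs) govern how ribosomes reach the main coding sequence of 8 stress-response mRNAs, which are described here across hippocampus, cultured hippocampal cells and embryonic stem cells. No cutoff on a measured value was used to choose them, but earlier results of these data were known at the time. The 8 genes, taken by symbol, were Atf4, Atf5, Ddit3, Trib3, Ppp1r15a, Ppp1r15b, Ifrd1 and Slc35a4. Of these, 7 occurred in the deposited tables, which together list 13190 genes. Atf5 was absent from all 4 tables. Trib3 was absent from both tissue tables and listed for the culture and the stem cells, so 6 of the 8 genes could be followed in tissue.

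Ribosome-protected fragments (footprints) and RNA were sequenced from the hippocampus of C57BL/6N mice that received no stimulus (control) or contextual fear conditioning, sampled 5, 10 and 30 min and 4 h later. The mice were handled daily for 4 days and conditioning paired a chamber, explored for 148 s, with a 2 s foot shock. Each of the 5 groups had 3 footprint and 3 RNA libraries, numbered 1 to 3 in the labels. The sources do not say whether a replicate is 1 mouse or a pool, and the p-values cover the spread between libraries, part of which may be technical. A hippocampal primary culture of the same strain, for which no conditioning, age or days in culture is given, and the mouse embryonic stem cell (ESC) line A3-1, treated for 48 h with a control siRNA against luciferase, had 1 library of each kind and therefore no test.

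When a cell is stressed, kinases such as PERK, GCN2, PKR and HRI phosphorylate the initiation factor eIF2, and most mRNAs are then translated less. Upstream ORFs in the leaders of Atf4, Atf5, Ddit3, Ppp1r15a and Ppp1r15b capture scanning ribosomes in unstressed cells, and more ribosomes pass them by when eIF2 is phosphorylated. ATF4 then activates genes of amino acid supply and stress control, among them Ddit3 and Trib3, while the PPP1R15 proteins return eIF2 to its unphosphorylated state. In neurons the same pathway is known to bear on long-term memory, which is why these mRNAs are of interest after fear conditioning.

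A value, called signal here, is the number of reads on a gene divided by 1 number per library. Since gene length does not enter it, signals are compared for 1 gene between libraries and not between genes. The footprint to RNA ratio of a gene is its footprint signal over its RNA signal, and the relative ratio is that value over the ratio of the median gene of the same library pair. The sources used here do not give the part of the mRNA over which reads were counted, so it is unknown whether footprints on the leaders, where the upstream ORFs lie, are part of a value.

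Tissue libraries held 14240563 to 30480009 footprint reads and 16814796 to 25515210 RNA reads on listed genes, the culture held 18771379 and 7282564, and the ESC held 65147288 and 16686790. All 8 hippocampal neuron markers (such as Snap25 and Camk2a) were listed in tissue and in the culture, and 3 of 8 in ESC, whereas all 8 pluripotency markers (such as Pou5f1 and Nanog) were listed in ESC and 1, Sox2, in the others. The summed RNA signal of 12 choroid plexus markers, which come from the secretory epithelium of the ventricles beside the hippocampus, ranged from 29.0 to 785 over the tissue libraries, and was lowest in those numbered 3. In bulk samples of this kind, fewer cells of a type and less RNA per cell cannot be told apart.

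The promoters of 4 members are shown because the RNA of each was over 2-fold higher in the culture than in control hippocampus, as described below. Each line gives the 130 bases before the start of transcription in the RefSeq annotation of mouse build GRCm38.p6, 5′ to 3′ on the strand of the gene, with motif matches in capitals. The motifs searched on both strands were the cAMP response element TGACGTCA, to which ATF and CREB proteins bind, the box CCAAT, which reads ATTGG on the opposite strand, and TGATGNAA, a composite element for ATF4 and C/EBP proteins.
Ppp1r15a, chr7:45526269-45526398 (- strand): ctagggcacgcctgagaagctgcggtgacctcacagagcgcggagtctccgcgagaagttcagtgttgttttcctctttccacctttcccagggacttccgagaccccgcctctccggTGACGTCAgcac
Ddit3, chr10:127290663-127290792 (+ strand): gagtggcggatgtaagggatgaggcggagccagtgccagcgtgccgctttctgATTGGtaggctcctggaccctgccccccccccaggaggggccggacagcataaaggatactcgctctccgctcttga
Atf4, chr15:80255054-80255183 (+ strand): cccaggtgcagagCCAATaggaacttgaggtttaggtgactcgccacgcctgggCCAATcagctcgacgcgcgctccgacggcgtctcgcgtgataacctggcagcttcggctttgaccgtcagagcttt
Ifrd1, chr12:40223190-40223319 (- strand): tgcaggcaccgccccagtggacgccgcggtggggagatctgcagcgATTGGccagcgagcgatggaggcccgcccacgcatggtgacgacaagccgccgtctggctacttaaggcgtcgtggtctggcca
The Ppp1r15a promoter held a full TGACGTCA at positions -12 to -5 from the start, which 1.55% of 32851 windows of 250 bases hold. CCAAT boxes lay in the windows of Atf4 (from -117 and from -76), Ddit3 (from -77, other strand) and Ifrd1 (from -84, other strand), and 33.8% of all windows hold one. TGATGNAA, held by 3.45% of all windows, matched none of these 4 windows. The matches describe these letters only. Ppp1r15b and Slc35a4 had no entry in the promoter table.

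In control hippocampus the mRNAs of the stress transcription factors carried few footprints for their RNA. Atf4, the transcription factor at the centre of the pathway, had RNA signals of 5.46, 6.01 and 5.66 in control replicates 1 to 3 and footprint signals of 2.24, 2.60 and 2.43, and its ratios were 0.410, 0.432 and 0.429. The 3 ratios lay close together, and all were far under the ratio of the median gene, at a mean relative ratio of 0.416 ± 0.00577 (SD, n = 3). Ddit3, which encodes the pro-apoptotic factor CHOP, had RNA signals of 1.68, 1.55 and 1.26 and footprint signals of 0.643, 0.671 and 0.652, so that its ratios of 0.384, 0.433 and 0.518 reached the same low level with a wider spread.

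Of the phosphatase subunits, which bring protein phosphatase 1 to eIF2, Ppp1r15a (GADD34, the stress-induced one) had RNA signals of 0.734, 0.821 and 0.606 and footprint signals of 0.311, 0.494 and 0.318. Its ratios of 0.424, 0.602 and 0.525 rested on 97 to 165 footprint reads and varied most between the control replicates. Ppp1r15b (CReP, the constitutive one) had RNA signals of 5.39, 5.39 and 4.93, footprint signals of 3.32, 3.46 and 3.24, and ratios of 0.616, 0.643 and 0.658. Its 3 ratios were all above those of Ppp1r15a.

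Ifrd1, an interferon-related transcriptional co-regulator whose mRNA is destabilised through its upstream ORF, had RNA signals of 2.51, 2.71 and 2.57 and footprint signals of 1.79, 2.06 and 2.21, giving ratios of 0.714, 0.761 and 0.863. Slc35a4, a member of the nucleotide sugar transporter family whose long upstream ORF is itself translated, had RNA signals of 1.51, 1.60 and 2.09, footprint signals of 1.64, 1.78 and 2.18, and ratios of 1.09, 1.11 and 1.04. It was the only one of the 6 whose ratios were all above that of the median gene.

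The order of the mean control ratios was therefore Atf4 (0.424), Ddit3 (0.445), Ppp1r15a (0.517), Ppp1r15b (0.639), Ifrd1 (0.779) and Slc35a4 (1.08). The values of Atf4, Ddit3 and Ppp1r15a overlapped and cannot be ordered. Ppp1r15b, Ifrd1 and Slc35a4 did not overlap their neighbours among the 3 control pairs. Over all 15 tissue pairs the ranges of every pair of neighbours overlapped, with Slc35a4 at 0.896 to 1.35, Ifrd1 at 0.644 to 0.966, and Ddit3, at 0.351 to 0.518, lowest by its mean of 0.410.

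Tested against the median gene with limma on log2(signal + 1), the control ratio was called lower for 3 of the 4 members past the filter (mean signal of at least 1 in both kinds of library), where 37.8% of 7103 genes were called lower and 37.2% higher. Atf4 lay 1.01 below the median gene on the log2 scale (log2 difference -1.01, SE 0.0870, adjusted p = 1.35e-10) and at percentile 8.80 of the genes tested. Ppp1r15b followed at -0.56 (SE 0.0680, adjusted p = 6.33e-08, percentile 20.8) and Ifrd1 at -0.29 (SE 0.0691, adjusted p = 0.000590, percentile 32.2). Slc35a4 was not called, at 0.04 with a 95% interval from -0.20 to 0.27, at percentile 52.1 of the genes tested. Without the filter, Ddit3 (-0.60) and Ppp1r15a (-0.34) were tested too and called lower, which made 5 of 6, where 37.5% of 11531 genes were called lower and 36.7% higher. With the replicate block the same 3 members of 4 were called lower, where 41.8% of genes were lower and 42.2% higher. The pseudocount of 1 understates differences of low genes: with 0.1 in its place and no filter the values were -1.23 for Atf4, -1.09 for Ddit3 and -0.83 for Ppp1r15a.

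Other mRNAs known for upstream ORFs, a list of 11 that includes Amd1, which encodes an enzyme of polyamine synthesis, and Slc7a1, an arginine transporter, were set beside them. The counts in this and the following lists stand beside the 37.8% lower and 37.2% higher over all genes, and no test compares a list with them. Of the 9 past the filter, 6 were called lower and 1 higher, with a median of -0.65, from Amd1 at -1.63 to Slc7a1 at 0.62. The 13 genes of aminoacyl-tRNA supply that ATF4 is known to activate had 7 of 12 tested called higher in control hippocampus and 1 lower, with a median of 0.38, from the tRNA exporter Xpot at -0.39 to Gars at 0.89. Among ATF4 targets of amino acid synthesis and transport, 7 of 10 were called higher and 2 lower, from the cystine transporter Slc7a11 at -1.14 to Slc3a2, the heavy chain of amino acid transporters, at 1.83. Chaperones and sensors of endoplasmic reticulum stress were called higher in 8 of 10 and lower in 2, from the sensor Atf6 at -0.87 to the chaperone Hsp90b1 at 1.42. ATF4-linked stress regulators had 2 of 5 higher and 3 lower, from Cebpg at -1.12 to Ddit4 at 1.09. Among eIF2 kinases and their regulators 5 of 9 were lower and 2 higher, from GCN2 (Eif2ak4) at -0.48 to HRI (Eif2ak1) at 0.37. The list of subunits of eIF2 and its exchange factor eIF2B, which also holds Eif5, had 3 of 6 lower and 2 higher, from Eif2s3x at -1.15 to Eif2s1 at 0.30. With 5, 9 and 6 genes tested, the counts of the last 3 lists are too small to read as differing from the shares over all genes.

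After conditioning no member was called in footprints, in RNA or in the ratio at any of the 4 times. Atf4 footprint signals were 2.24, 2.60 and 2.43 in control, 2.30, 2.98 and 2.69 at 5 min, 2.31, 2.84 and 2.55 at 10 min, 2.34, 2.80 and 2.33 at 30 min, and 2.11, 2.85 and 2.42 at 4 h. Each group overlapped control, and within every group replicate 2 was the highest. Within replicate numbers, which pair the samples, Atf4 footprints were higher than in control in 3 of 3 numbers at 5 and 10 min. So were those of Slc35a4 at both times and of Ifrd1 at 4 h. Ppp1r15b footprints were higher in 0 of 3 numbers at 5 min, 10 min and 4 h. The share of all genes with such agreement was not counted. Atf4 RNA was 5.71 ± 0.280 in control, 5.95 ± 0.715 at 5 min, 6.17 ± 0.618 at 10 min, 5.88 ± 0.399 at 30 min and 5.32 ± 0.395 at 4 h (SD, n = 3 each), and these groups overlapped control as well. With the replicate number as a block in limma, the Atf4 footprint change at 5 min was 0.09 (95% interval 0.00 to 0.18) with an unadjusted p of 0.0407 and an adjusted p of 0.668. In the same fit its RNA change at 10 min was 0.09 with an unadjusted p of 0.0486 and an adjusted p of 0.415. The test over any time in RNA gave 0.00725 and 0.475, so none passed the adjustment over all genes. Unadjusted limma p-values under 0.05 were common in this fit. They were found for 544 of 7898 genes in footprints at 5 min. In RNA, 968 of 8061 genes had one at 10 min and 624 over any time.

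**Figure D1:**
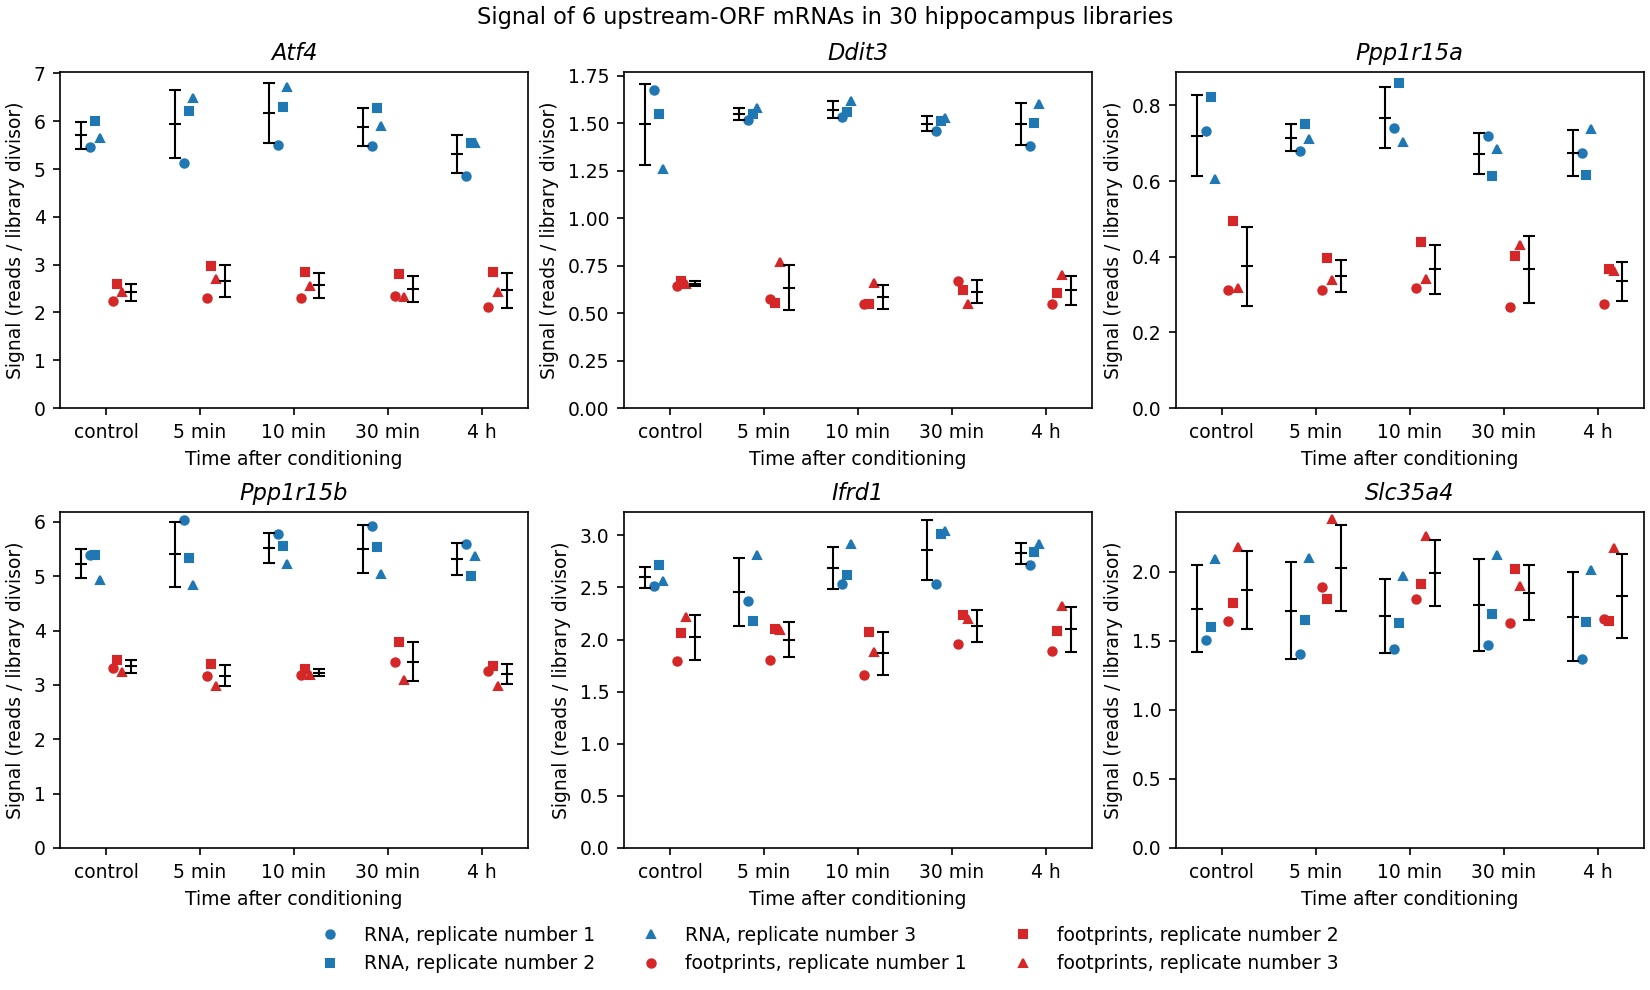
Signal of 6 mRNAs (y axis, reads over the library divisor, from 0) against time after conditioning (x axis) in 15 footprint libraries (red) and 15 RNA libraries (blue). Marker shape gives the replicate number and black bars the mean and SD of 3; each group of footprint values overlaps control, and Slc35a4 RNA in replicate 3 of every group lies above the other two.

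Across the 6 members and 4 times, the mean footprint signal was 0.893 to 1.098 times that in control and all 24 groups overlapped control. Mean RNA was 0.932 to 1.102 times control, and 23 of 24 overlapped. The exception was Ifrd1 at 4 h, with RNA signals of 2.72 to 2.92 beside 2.51 to 2.71 in control, a 1.09-fold difference that was not called (log2 change 0.09, 95% interval -0.06 to 0.24), where 7% of 11531 genes did not overlap at that time. The mean ratio was 0.836 to 1.101 times control, and 21 of 24 overlapped. Atf4 at 4 h had ratios of 0.435 to 0.514 beside 0.410 to 0.432 in control, where 6.72% of genes did not overlap. At 10 min, where 6.89% of genes did not overlap, Ppp1r15b had 0.552 to 0.609 beside 0.616 to 0.658 and Slc35a4 had 1.15 to 1.25 beside 1.04 to 1.11. None of these 3 was called in the model.

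By limma with Benjamini-Hochberg adjustment over all genes, 0% of 7898 genes in footprints, of 8061 in RNA and of 7103 in the ratio were called at any single time, so the members' count of 0 is that of the background. Without the block none of the 16 footprint, 20 RNA and 16 ratio contrasts of the members past the filter had an unadjusted p under 0.05. With the replicate number as a block, at a single time up to 0.0506% of genes were called in footprints and 0.0124%, 0.0248% or 0.0372% in RNA, over any time 0.076% and 0.062% were, and again no member. Without the block, the 95% intervals of the footprint changes all lay between -0.24 and 0.29 on the log2 scale, or 0.849 to 1.22 times control on the scale of signal + 1. Those of RNA lay between -0.29 and 0.27. Those of the ratio, the widest, lay between -0.36 and 0.42, or 0.782 to 1.34 times control on that scale. These are not folds of the footprint to RNA ratio itself. By limma-voom on the reads, with the block and no filter, the ratio intervals of all 6 members reached from -0.58 to 0.47, or 0.671 to 1.39 times control. With the block the limits were -0.16 to 0.19 in footprints, -0.18 to 0.21 in RNA and -0.26 to 0.25 in the ratio. In that fit 1 footprint and 1 RNA contrast, those of Atf4 given above, had an unadjusted limma p under 0.05. Over all genes, 544 of 7898 had one in footprints at 5 min and 968 of 8061 in RNA at 10 min. On log2(signal + 1), which understates changes of low genes, the most extreme footprint estimate was 0.09 for Atf4 at 5 min. It was 0.10 for Ifrd1 at 30 min in RNA and -0.11 for Ifrd1 at 10 min in the ratio. By limma-voom on the reads, with the block and no filter, Ddit3 at 10 min was most extreme in footprints (-0.17) and in the ratio (-0.25). Neither was called. Ppp1r15a, with 83 to 165 footprint reads a library, and Ddit3, with 137 to 306, did not pass the filter in footprints and were tested only without it, where they were not called either. There 0.00867% of 11531 genes were called in footprints at 10 and at 30 min and 0.0173% over any time.

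**Figure D2:**
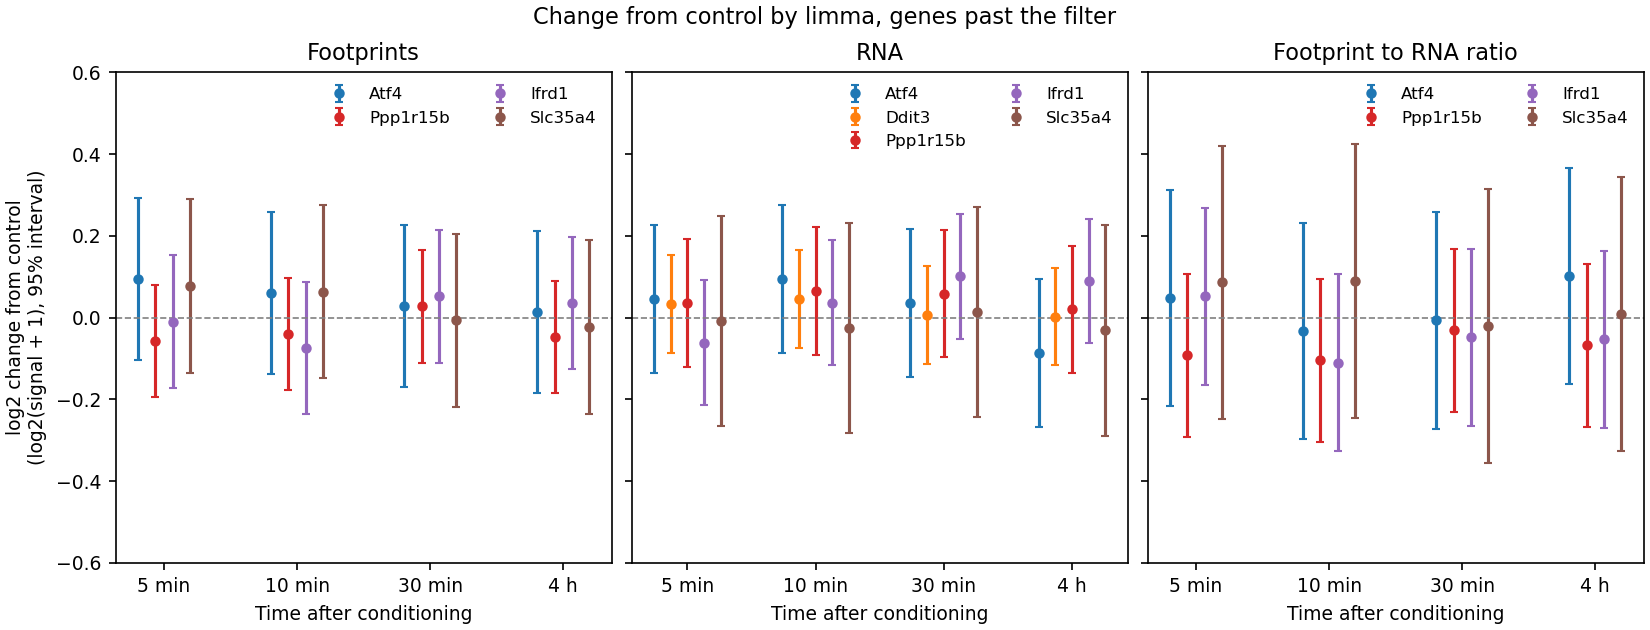
Change from control on the log2(signal + 1) scale (y axis) with 95% limma intervals at 4 times (x axis) for footprints, RNA and their ratio, for members past the filter. In this fit, which has no replicate block, every interval includes 0, and the intervals of the ratio reach from -0.36 to 0.42. With the block, those of Atf4 footprints at 5 min and Atf4 RNA at 10 min excluded 0. There 544 of 7898 and 968 of 8061 genes had an unadjusted limma p under 0.05.

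The pathway around these mRNAs gave no call at any time either. Of the 7 lists of other pathway genes (5 to 13 past the filter in each measure), no gene was called in footprints, RNA or the ratio, with or without the block. The list members with the smallest unadjusted p of limma's F-test over time in footprints were Sesn2 of the stress regulators (0.118), Amd1 of the other upstream ORF mRNAs (0.247), Gpt2 of amino acid supply (0.331), Eif2b4 of the eIF2B subunits (0.466), Yars of the synthetases (0.523), Manf of endoplasmic reticulum stress (0.564) and Ppp1cc of the eIF2 regulators (0.921).

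The replicate number went with the levels of most members tested, as it did with most genes. Slc35a4 RNA averaged 1.44, 1.64 and 2.06 in the 5 libraries numbered 1, 2 and 3, and its footprints 1.72, 1.83 and 2.18. The values of number 3 were the highest in RNA in every group. In the limma fit with a block, its RNA differed between numbers with an adjusted p of 1.83e-08 (log2 difference 0.33 between 3 and 1) and its footprints with 0.000280. Atf4, Ifrd1 and Ppp1r15b also differed between numbers in both kinds of library, with adjusted p from 4.40e-05 to 0.0263, while Ddit3 RNA did not pass the threshold (adjusted p = 0.9498). Ppp1r15a, and Ddit3 in footprints, did not pass the filter and were not tested between numbers. Such differences were common, with 73.1% of genes called in footprints and 65.5% in RNA. Beside this, the summed RNA signal of the 12 choroid plexus markers was 515 to 785 in number 1, 308 to 700 in number 2 and 29.0 to 202 in number 3, and that of 6 astrocyte markers was 518 to 560, 377 to 473 and 428 to 473. Their part in the members' differences was not tested. What the number stands for is not given in the labels.

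In the primary culture the inducible stress mRNAs were far higher in RNA and higher again in footprints than in control hippocampus. The 2 tables were normalised separately and the culture had 1 library of each kind, so the folds below carry no test. Ddit3 RNA had a signal of 14.02 (95% counting interval 13.4 to 14.7) beside 1.495 ± 0.213 (SD, n = 3) in control tissue, which is 9.38-fold. Its footprint signal was 11.04 (10.7 to 11.4) beside 0.656 ± 0.0139, or 16.8-fold. Atf4 RNA was 25.7 (24.8 to 26.5), 4.50-fold above control tissue, and its footprints were 20.4 (19.9 to 20.9), 8.41-fold above. Both factors lay outside the range of all 15 tissue libraries in either kind.

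Ppp1r15a RNA was 6.79 (6.37 to 7.23) and its footprints 5.25 (5.00 to 5.50), which are 9.42-fold and 14.01-fold above control tissue. Ppp1r15b, the constitutive subunit, was 9.58 (9.08 to 10.1) in RNA and 4.51 (4.28 to 4.75) in footprints, or 1.83-fold and 1.35-fold. Ifrd1 was 7.42 (6.97 to 7.88) in RNA and 9.12 (8.79 to 9.46) in footprints, 2.86-fold and 4.51-fold. Slc35a4 was nearly level at 2.12 (1.89 to 2.37) in RNA and 1.86 (1.71 to 2.02) in footprints, 1.23-fold and 0.998-fold. Trib3, the pseudokinase that ATF4 and CHOP induce, was listed at 0.430 in RNA (61 reads) and 0.574 in footprints (182 reads) and has no tissue value to compare.

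Thus 4 of the 6 shared members were over 2-fold higher in RNA, where 8.12% of 10162 shared genes were, and the same 4 in footprints, where 11.3% were. The median gene stood at 0.961-fold in RNA and 0.977-fold in footprints. Ppp1r15a and Ddit3 lay at percentiles 99.8 and 99.8 of all RNA folds, Atf4 at 99.1 and Ifrd1 at 97.2. In all 4, footprints exceeded the RNA fold, so that the ratio was 1.87-fold that of control tissue in Atf4, 1.797-fold in Ddit3, 1.58-fold in Ifrd1 and 1.49-fold in Ppp1r15a. None reached 2-fold in the ratio, where 4.22% of genes did, and Atf4 lay at percentile 94.4. Ppp1r15b (0.738-fold) and Slc35a4 (0.814-fold) went the other way.

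**Figure D3:**
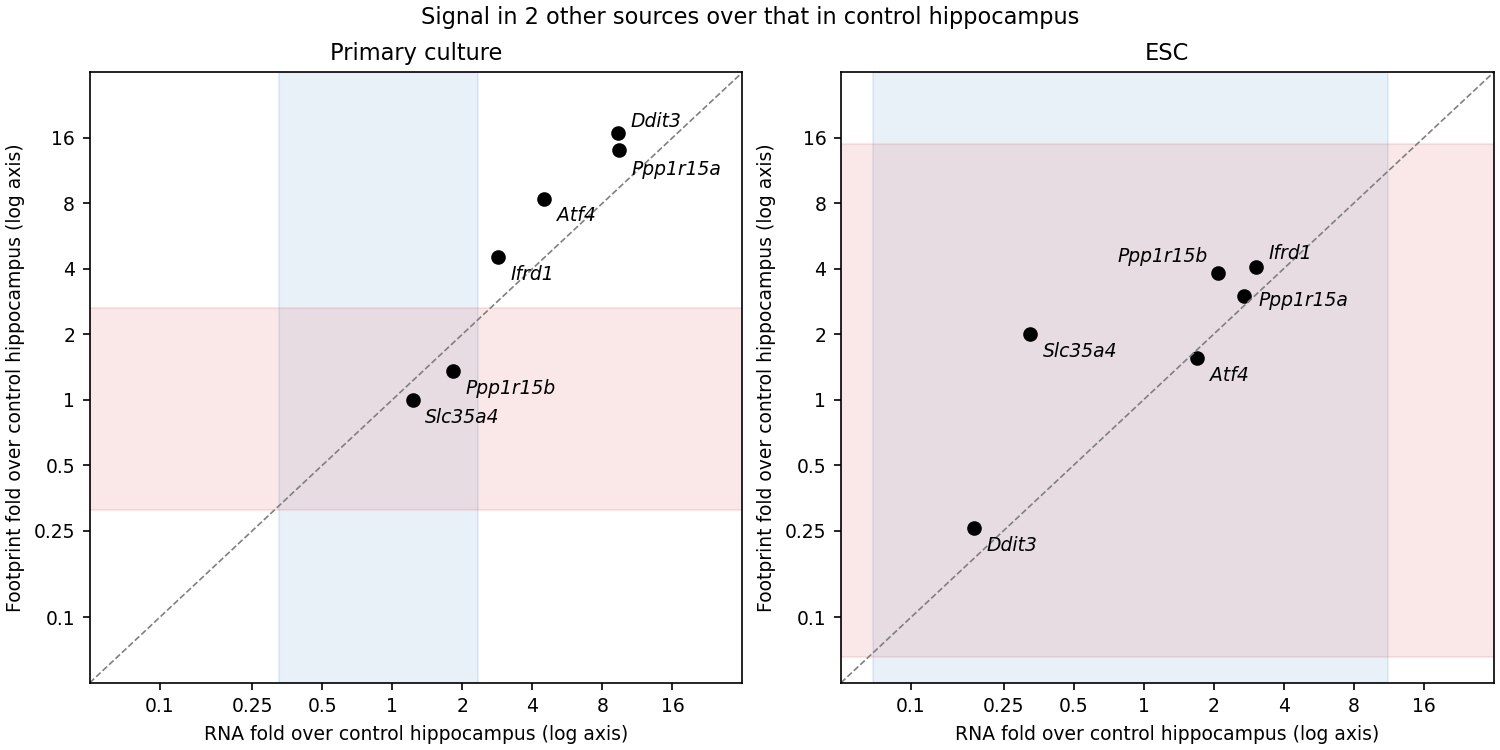
RNA fold (x axis) against footprint fold (y axis) over control hippocampus, both on log axes, for 6 members in the primary culture (left) and in ESC (right). Shading spans the 5th to 95th percentile of all shared genes in RNA (blue) and footprints (red), and the dashed line marks equal folds; Ddit3, Ppp1r15a, Atf4 and Ifrd1 lie beyond both bands in the culture, and Slc35a4 lies far above the line in ESC.

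The order of the ratios in the culture accordingly differed from that in tissue. Ppp1r15b was lowest at 0.471 (95% interval 0.437 to 0.508), apart from the rest. Ppp1r15a (0.773), Ddit3 (0.788), Atf4 (0.793) and Slc35a4 (0.878, 0.763 to 1.01) had overlapping intervals from one to the next, and Ifrd1 (1.23) and Trib3 (1.34, 0.995 to 1.82) stood above them. Relative to the median gene, 5 of the 7 listed members were below 1, from 0.461 in Ppp1r15b to 0.859 in Slc35a4. These intervals cover counting error only, and no replicate shows how far another culture would differ.

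Most genes that ATF4 is known to activate were also higher in culture RNA. Over all 10162 shared genes, 8.12% were over 2-fold higher and 13.6% over 2-fold lower. Of 13 genes of aminoacyl-tRNA supply, 12 were over 2-fold higher, with a median of 3.91-fold, led by the synthetases Cars (6.61-fold), Aars (6.34-fold), Tars (5.08-fold) and Mars (4.12-fold). Of 15 shared genes of amino acid synthesis and transport, 11 were over 2-fold higher, with a median of 4.05-fold, led by the leucine transporter Slc7a5 (18.6-fold), the mitochondrial folate enzymes Mthfd2 (18.1-fold) and Shmt2 (10.6-fold), and Slc7a1 (10.1-fold). Slc7a11 was the 1 gene over 2-fold lower, at 0.163-fold. Of 10 stress regulators, 7 were over 2-fold higher, led by the glutathione-degrading enzyme Chac1 (16.1-fold), Sesn2 (12.5-fold), Herpud1 (4.50-fold) and Cebpb (3.47-fold), and the factor Jdp2 was lower (0.442-fold). The folds of Chac1, Mthfd2 and Shmt2 rest on low control tissue RNA signals of 0.199, 0.214 and 0.329. These lay at percentiles 1.84, 2.48 and 7.31 of the genes listed there, a rank by reads that is not corrected for gene length. In these 3 lists no gene differed by 2-fold in the ratio.

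Counts in the other lists were lower, beside the 8.12% of all shared genes over 2-fold higher in RNA and their median of 0.961-fold. Of 13 genes of endoplasmic reticulum stress 2 were over 2-fold higher in RNA, Atf6 (2.57-fold) and the chaperone Hspa5 (2.50-fold), and the median was 1.23-fold. None of 11 eIF2 kinases and regulators was, at a median of 0.825-fold. Of 9 genes in the list of eIF2 and eIF2B subunits, which also holds Eif5, 4 were, led by Eif2b5 (2.36-fold) and Eif2b2 (2.29-fold), at a median of 1.88-fold. Of 10 other upstream ORF mRNAs 4 were higher, among them Odc1 (2.63-fold), Amd1 was lower (0.224-fold), and the median was 1.49-fold. Odc1, the first enzyme of polyamine synthesis, was also the 1 gene of that list past 2-fold in the ratio (0.436-fold). Slc7a1, Cebpb, Eprs and Eif5 stand in 2 lists each.

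The culture also differed from tissue in its cells. Of 12 choroid plexus markers 2 were listed, with a summed RNA signal of 0.972 beside 519 in control tissue, of 6 oligodendrocyte markers 2 (0.993 beside 184), of 6 microglia markers 1 and of 5 endothelial markers none. Neuron markers summed to 139 beside 208, and 5 of 6 astrocyte markers to 219 beside 442. The part of this difference in cell types in the members' folds was not tested.

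In ESC the members went separate ways, and Slc35a4 stood out. Its RNA signal was 0.563 (95% counting interval 0.467 to 0.672, 121 reads), 0.325-fold that of control hippocampus, while its footprint signal was 3.72 (3.58 to 3.87, 2450 reads), or 2.00-fold by rounding (just under 2). The ratio of 6.62 (5.51 to 8.01) was 6.14-fold that in control tissue, 5.75 times that of the median gene and at percentile 98.3 of the 11029 genes in ESC. A ratio over 2-fold higher than in tissue was found in 17.7% of 9456 shared genes, and the 95th percentile of that fold was 3.49. Slc35a4 was the only one of the 6 shared members past 2-fold in the ratio. Whether these footprints lie on its upstream ORF or on its main coding sequence cannot be told from values per gene.

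The other members kept ratios in ESC closer to those in tissue. Atf4 had the lowest ratio of the 7 in ESC, at 0.388 (0.366 to 0.412), with RNA of 9.70 (9.29 to 10.1) and footprints of 3.77 (3.62 to 3.92), 1.70-fold and 1.56-fold above control tissue. Ddit3 was low in both kinds, at 0.279 in RNA (60 reads) and 0.169 in footprints (111 reads), 0.187-fold and 0.257-fold, with a ratio of 0.604 (0.438 to 0.842). Ppp1r15a was 1.94 in RNA and 1.12 in footprints, 2.69-fold and 3.00-fold. Ppp1r15b was 10.9 in RNA and 12.8 in footprints, 2.08-fold and 3.83-fold, so that its ratio of 1.17 (1.12 to 1.23) was 1.84-fold that in tissue, the opposite direction to the culture. Ifrd1 was 7.90 and 8.24, 3.04-fold and 4.07-fold, and Trib3 1.37 and 1.17, with a ratio of 0.858 (0.749 to 0.985).

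ESC differed from hippocampus in many genes, and the members' folds have to be read against that. RNA was over 2-fold higher in 37.4% of 9456 shared genes and over 2-fold lower in 27.6%, and of the 6 members 3 were higher and 2 lower. Footprints were over 2-fold higher in 41.6% and lower in 25.6% of genes, and in 3 and 1 of the members. The culture and ESC were both set against the same control libraries and are not independent. Side by side, Atf4 RNA was 4.50-fold in the culture and 1.70-fold in ESC, Ppp1r15a 9.42-fold and 2.69-fold, and Ddit3 9.38-fold and 0.187-fold.

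**Figure D4:**
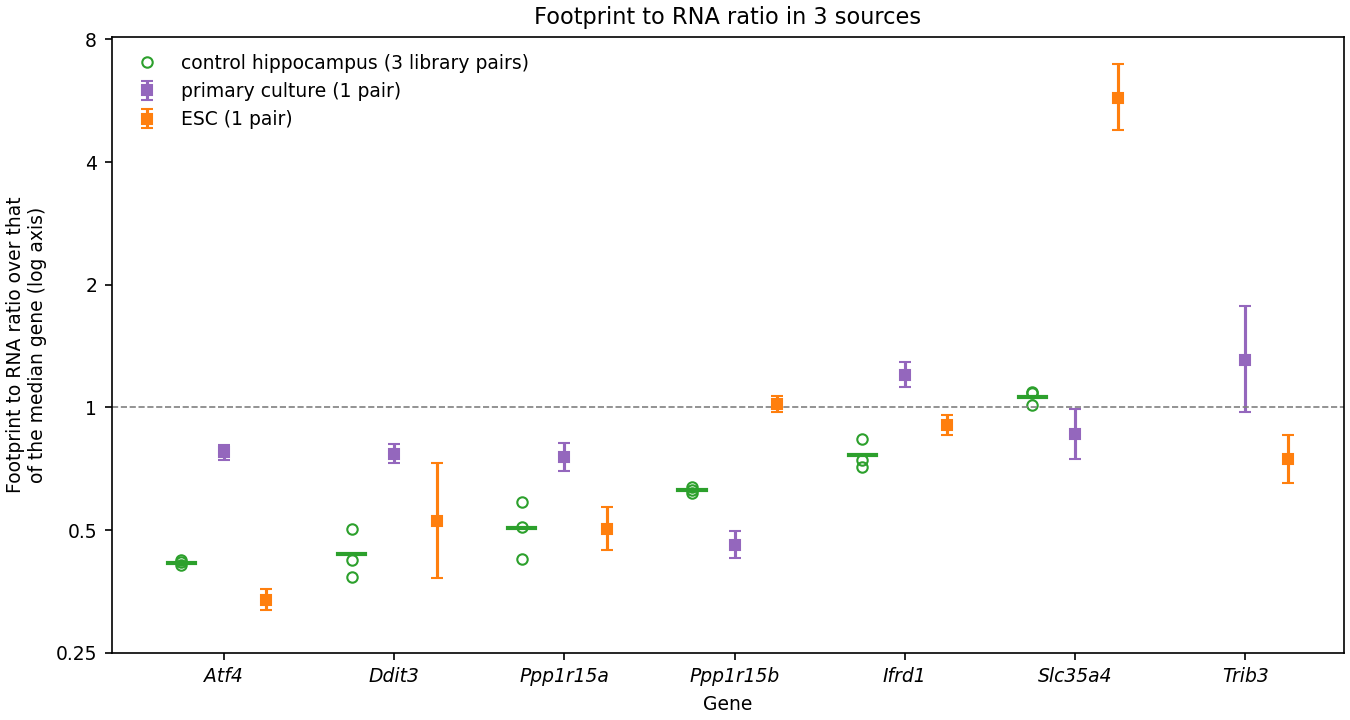
Footprint to RNA ratio over that of the median gene of the same library pair (y axis, log axis) for 7 genes in control hippocampus (3 pairs, circles, bar at the mean), primary culture and ESC (1 pair each, squares with 95% counting intervals). Atf4 lies at 0.416 in tissue, 0.776 in the culture and 0.338 in ESC, Slc35a4 reaches 5.75 in ESC, and Trib3 has no tissue value.

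Among the other upstream ORF mRNAs, 3 of 10 had a ratio over 2-fold higher in ESC than in control tissue, where 17.7% of 9456 shared genes did. They were Mief1 at 3.37-fold, whose upstream ORF also encodes a stable small protein, Ibtk at 2.41-fold and Eif5 at 2.35-fold. Odc1 was lower at 0.417-fold, where 7.49% of genes were over 2-fold lower. In RNA, 37.4% of shared genes were over 2-fold higher in ESC and 27.6% over 2-fold lower. Of the ATF4 targets in ESC, all 13 genes of aminoacyl-tRNA supply were over 2-fold higher in RNA (median 5.90-fold, led by Tars at 19.6-fold). Of amino acid supply 11 of 14 were (led by Cth at 43.6-fold, with Slc7a11 at 0.00966-fold). Of 9 stress regulators 1 was (Sesn2 at 5.90-fold) and 4 were lower, among them Vldlr at 0.0125-fold and Jdp2 at 0.157-fold. The Cth fold rests on a low control tissue RNA signal of 0.228. Those of Slc7a11 and Vldlr rest on low ESC RNA signals of 0.107 and 0.177. No test compared these counts with the shares.

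Over the 15 tissue pairs the members' ratios did not follow one another. After the mean of each replicate number was removed, Pearson's r between the ratios of the 4 members past the filter ranged from -0.43 for Ppp1r15b and Slc35a4 to 0.44 for Atf4 and Ifrd1. Out of 7102 genes, the ratios most like that of Atf4 were those of Brinp2 (r = 0.90), Pcsk6 (0.85) and Cdk2ap1 (0.85). Those most like Ppp1r15b were Camta2 (0.86), Cyfip2 (0.83) and Dnal1 (0.82), those most like Ifrd1 were Dctn6 (0.90), Vti1a (0.89) and Sstr1 (0.85), and those most like Slc35a4 were Tm2d2 (0.83), Yif1b (0.81) and Ndufb6 (0.79). These are the highest of 7102 values over 15 pairs and describe these libraries only.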

How the data were processed

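Ribosome footprints and RNA were measured in 34 libraries. The submitters' processing notes list CASAVA 1.8.2, Bowtie 1.1.1 and the mouse build mm9. How reads were assigned to genes, strand included, is not known from the sources. The deposited signal values proved to be whole reads divided by 1 number per library (within 0.001 reads in every library). Multiplied back, they gave the reads and the exact 95% counting intervals, which cover counting error only.

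From these, limma 3.58.1 in R 4.3.3 (lmFit, eBayes with a trend) was run on log2(signal + 1) over genes with a mean of at least 1, with 5 groups in 1 model, 2-sided, Benjamini-Hochberg over all genes, threshold 0.05. The ratio was the interaction of kind and group in 30 libraries. The models were checked on simulated reads. These held no difference between replicate numbers, so the check does not cover that part of the spread. The culture and ESC have 1 library of each kind and no test. Alternatives were other filters, pseudocounts, scalings, left-out libraries, limma-voom on the reads and a replicate block.

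Replicate numbers come from the titles. Deviations from group means correlated at 0.40 to 0.94 between footprint libraries of the same number and at 0.27 to 0.87 in RNA, and at -0.78 to 0.26 otherwise, so the numbers pair the samples. The members and gene lists were chosen with earlier results of these data known. The 8 members are always named, and of each list at most 4 genes a direction (the largest past the threshold or 2-fold), otherwise that of smallest F-test p, and the extremes of baseline ratios. The test between replicate numbers and the choice of promoters followed sight of the values.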

Additional observations from a re-analysis of the deposited data

How the results depend on the processing

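Where tested, no member was called at any time in footprints, RNA or the ratio under any alternative run. Atf4, Ppp1r15b, Ifrd1 and Slc35a4, and Ddit3 in RNA, were tested with each library left out; Ppp1r15a, and Ddit3 in footprints and the ratio, were tested in the 3 fits without a filter only. Counts of all genes called did change. Footprints at single times had 0 calls, 4 with the replicate block, 2 without a filter, and, with settings chosen after seeing the data, 12 without a filter and with the block, 6 by limma-voom with the block and 12 by voom without a filter and with the block; leaving out 1 library gave 0 to 1 (1 without replicate 2 at 5 min). Over any time these were 0, 6, 2, 10, 6 and 10, with 0 to 1 for left-out libraries. RNA at single times had 0 calls, 8 with the block, 16 without a filter and with the block, 7 by voom with the block and 19 by voom without a filter and with the block; over any time 0, 5, 19, 5 and 12, and 1 without a filter. The ratio had 1 call at single times with a replicate block within each kind. With the block the members' calls, over time and against the median gene in control tissue, were the same as without it. Members called lower than the median gene in control tissue were 3, and 5 without a filter, also with a pseudocount of 0.1; the construction of the filter explains this, since Ddit3 and Ppp1r15a were then tested. Centring on the upper quartile in place of the median gene lowers every gene by the same amount: Slc35a4 then stood at -0.41 and was called lower (adjusted p = 0.00169), which made 4 members, while its percentile stayed at 52.1. Members below the median gene in ESC were 5, and 2 when an RNA signal of at least 3 was required, since fewer members then entered. The planned count tests (edgeR with and without the block, DESeq2) were not run, because the deposited unit is not counts. Depth limits Ddit3 in ESC (60 RNA and 111 footprint reads), Trib3 in the culture (61 and 182), and Ddit3 and Ppp1r15a in tissue.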
